A study of Mus musculus with 27 samples.

Results

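Transcripts of 10 genes of neuronal calcium entry and calcium release were examined in nuclei of the mouse hippocampus, out of 31053 genes in the count tables. The genes were chosen by symbol, and all 10 were found. They are the pore subunits Cacna1a, Cacna1b, Cacna1c, Cacna1d and Cacna1e, the auxiliary β subunits Cacnb2 and Cacnb4, the ryanodine receptors Ryr2 and Ryr3, and the inositol trisphosphate (IP3) receptor Itpr1. Voltage-gated calcium channels open when the membrane depolarizes, and the α1 subunit forms the pore and sets the channel type, whereas β subunits bring the pore to the membrane and tune its gating. Ryanodine receptors and IP3 receptors sit in the endoplasmic reticulum and release stored calcium, the first in answer to calcium itself and the second in answer to IP3 made by phospholipase C. In hippocampal neurons these proteins serve transmitter release, firing patterns and synaptic plasticity.

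The libraries came from 27 adult mice late in their first year of life, 1 library per mouse, and gave, for every nucleus and gene, the number of UMIs, tags that mark each captured molecule of RNA once, unspliced RNA included. Groups combined presence or absence of a transgene for human P301S tau, a mutant form found in inherited dementia, under the mouse Prnp promoter with a Cgas genotype; Cgas encodes a sensor of cytosolic DNA and is altered in the whole body. Without P301S there were 5 Cgas+/+ mice (3 males, 2 females), 2 Cgas+/- males and 2 Cgas-/- males. With P301S there were 6 Cgas+/+, 6 Cgas+/- and 6 Cgas-/- mice, each group with 3 males and 3 females.

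Total UMIs per library ranged from 46091490 to 79484316, and 204852 nuclei were kept, 5840 to 12572 per library. Pairs of libraries shared 8 to 48 barcodes. Nuclei were clustered without the 10 genes, and clusters are called "like" a cell type from marker lists; 13111 nuclei (6.40%) stayed unnamed. Although the tissue is labelled hippocampus, nuclei named from cortical marker lists made up 2.89% to 80.7% of excitatory neuron-like nuclei in single libraries. This cortical-like share includes the Tshz2 cortical or subicular-like nuclei, 15.3% of all excitatory neuron-like nuclei. Part of the share may therefore be subicular, because that list cannot tell subicular from cortical nuclei. Sex-linked transcripts followed the labelled sex in 27 of 27 libraries. Transcripts of Cgas (Mb21d1) did not follow the labels among P301S mice: in microglia-like nuclei the P301S Cgas+/+ libraries had 37.8 ± 11.5 CPM (percent of the class's UMIs times 10000; mean ± SD, n = 6) and the P301S Cgas-/- libraries 51.4 ± 7.13 (n = 6). Without P301S the means were 35.4 CPM in Cgas+/+ (n = 5), 19.1 in Cgas+/- (n = 2) and 27.3 in Cgas-/- (n = 2). Whether the captured RNA came from the altered part of the gene cannot be read from these counts, so the Cgas groups below are libraries labelled with that genotype.

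The 10 genes held 8171444 of 1158950166 UMIs in kept nuclei (0.705%). All are long, spanning 159.27 kb (Cacna1b, chromosome 2, 24603887 to 24763152) to 609.18 kb (Cacna1c, chromosome 6, 118587240 to 119196418) on GRCm38, the assembly of mm10. The genes on which most results below turn are Cacna1d (chromosome 14, 30039939 to 30491455), Cacnb2 (chromosome 2, 14603088 to 14987908), Cacnb4 (chromosome 2, 52428320 to 52676831), Ryr3 (chromosome 2, 112631355 to 113217096) and Itpr1 (chromosome 6, 108213096 to 108551109). Because intronic reads were counted over whole gene spans, levels of different genes are compared only as CPM per 100 kb of span. Other genes of the count tables overlap 6 of the members on the opposite strand, among them Gm10848 and Gm13269 for Cacnb2, Chdh and Dcp1a for Cacna1d and Aven for Ryr3, and counts of such pairs are uncertain where strand was not used.

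In excitatory neuron-like nuclei the pore subunit Cacna1a (P/Q-type, the main channel of transmitter release) led per length, at 373 CPM per 100 kb, before Cacnb2 and Cacnb4 at 340 each and Ryr2 at 276. Cacna1d, a neuronal L-type pore that opens at modest depolarization, was lowest at 116. In inhibitory neuron-like nuclei Cacna1a again led at 438 CPM per 100 kb, followed by Cacnb4 and then Cacna1b (N-type, also a channel of transmitter release) at 274. Ryr3 and Cacna1e were the lowest there, at 38.6 and 48.8. Cacna1e, Ryr3, Itpr1, Ryr2, Cacnb2, Cacna1c and Cacnb4 stood higher per length in excitatory than in inhibitory neuron-like nuclei, with Itpr1 at 140 against 59.0. In the order within inhibitory neuron-like nuclei, Cacna1b and Cacna1d took higher places, 3 and 6 of 10 against 7 and 10. So did Cacna1c (4 against 6), Cacnb4 (2 against 3) and Itpr1 (8 against 9).

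**Figure D1:**
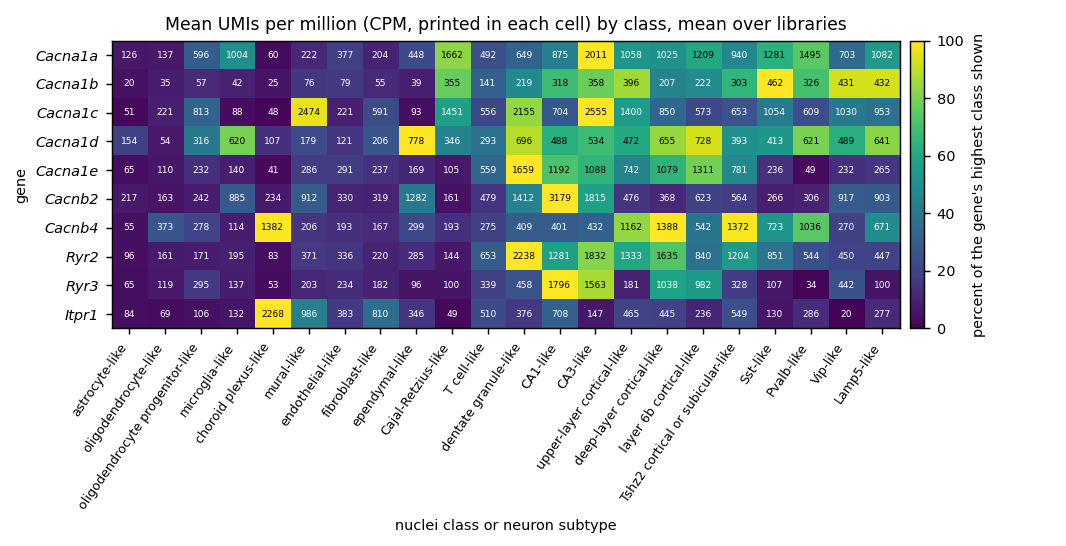
Mean CPM of the 10 genes (vertical axis) in each nuclei class and neuron subtype (horizontal axis), averaged over libraries; the number in each cell is the mean and the colour its percent of the gene's highest class shown. Cacnb2 peaks in CA1-like nuclei at 3179 CPM, Ryr2 and Cacna1e in dentate granule-like nuclei at 2238 and 1659, and Itpr1 in choroid plexus-like nuclei at 2268.

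Among the pore subunits, Cacna1a was highest in CA3-like nuclei, at 2011 ± 628 CPM (SD, n = 22 libraries), followed by Cajal-Retzius-like nuclei at 1662 ± 258 (n = 20) and Pvalb-like nuclei at 1495 ± 238 (n = 27). The ranges of these neighbours overlapped. Cacna1b ranged among neurons from 207 CPM in deep-layer cortical-like nuclei to 462 ± 34.6 (n = 26) in Sst-like nuclei. Cacna1c, the L-type pore of smooth muscle and of neuronal cell bodies, was highest in CA3-like nuclei (2555 ± 362, n = 22) and in mural-like nuclei (2474 ± 576, n = 24), the contractile cells of vessels. Dentate granule-like nuclei followed at 2155 ± 222 (n = 27), and CA1-like nuclei stood at 704 ± 245 (n = 27). Cacna1d spanned a narrow range in neurons, from 346 CPM in Cajal-Retzius-like to 728 in layer 6b cortical-like nuclei, and reached 778 ± 149 (n = 19) in ependymal-like nuclei. Cacna1e, the R-type pore, separated neurons most among the 5 pores: 1659 ± 99.8 CPM (n = 27) in dentate granule-like nuclei against 49.4 ± 20.1 (n = 27) in Pvalb-like nuclei.

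The β subunits had nearly opposite patterns over excitatory subtypes. Cacnb2 stood at 3179 ± 205 CPM in CA1-like nuclei (n = 27), above the whole range of CA3-like nuclei (1815 ± 530, n = 22), and at 368 in deep-layer cortical-like nuclei. Cacnb4 stood at 1388 ± 291 in deep-layer cortical-like nuclei (n = 25) and 1372 ± 124 in Tshz2 cortical or subicular-like nuclei (n = 27), against 401 in CA1-like and 409 in dentate granule-like nuclei. A sum over all excitatory neuron-like nuclei therefore depends on the mix of subtypes for both genes. Among interneurons, Cacnb2 was higher in Vip-like (917) and Lamp5-like nuclei (903) than in Pvalb-like (306) or Sst-like nuclei (266), and Cacnb4 was highest in Pvalb-like nuclei at 1036 ± 100 CPM (n = 27).

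Of the release channels, Ryr2 was highest in dentate granule-like nuclei (2238 ± 173 CPM, n = 27), and its level over all excitatory neuron-like nuclei, 1529 ± 179 (n = 27), did not overlap that in inhibitory neuron-like nuclei, 653. Ryr3 was highest in CA1-like (1796 ± 304, n = 27) and CA3-like nuclei (1563 ± 132, n = 22), whose ranges overlapped. It stood at 458 ± 85.3 in dentate granule-like nuclei (n = 27), and at 33.6 ± 12.6 in Pvalb-like nuclei (n = 27). Itpr1 among neurons was highest in CA1-like nuclei (708 ± 71.9, n = 27), with 147 ± 54.5 in CA3-like (n = 22), 286 ± 64.0 in Pvalb-like (n = 27) and 20.1 ± 8.44 in Vip-like nuclei (n = 27). The 2 hippocampal pyramidal subtypes thus shared a high Ryr3 level but not a high Itpr1 level.

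Outside neurons, levels were read against free RNA, for which 9 neuron genes served as a gauge: a member was taken as above background where its level, as a percent of that in excitatory neuron-like nuclei, exceeded the highest of the 9. The gauge was coarse in astrocyte-like nuclei, where its highest gene stood at 96.3%, and in oligodendrocyte progenitor-like nuclei, at 73.1%. No member exceeded it in either class. In oligodendrocyte progenitor-like nuclei, where the 9 had a median of 12.8%, Cacna1c stood at 66.2%, Cacna1a at 63.4% and Cacna1d at 60.4%. The other members stood at 11.2% to 35.1% there. For those 3 genes the gauge cannot tell expression in progenitors from free RNA. In microglia-like nuclei, where the highest of the 9 stood at 35.3%, Cacna1d exceeded it 3.36-fold, Cacna1a 3.03-fold and Cacnb2 1.92-fold. In choroid plexus-like nuclei Itpr1 stood at 490.1% of its level in excitatory neuron-like nuclei and Cacnb4 at 163%, where the highest of the 9 stood at 16.4%. The level of Itpr1 there, 2268 ± 267 CPM (n = 14), did not overlap that in mural-like nuclei, 986 ± 157 (n = 24). In mural-like nuclei Itpr1 exceeded the gauge 4.49-fold and Cacna1c 4.25-fold, in ependymal-like nuclei Cacna1d 5.93-fold and Cacnb2 3.83-fold, and in oligodendrocyte-like nuclei Cacnb4 1.44-fold. Itpr1 also exceeded it in fibroblast-like (5.87-fold), ependymal-like (3.09-fold), endothelial-like (1.78-fold) and T cell-like nuclei (1.43-fold). Some smaller excesses of other members are left out.

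Over the means of 24 classes and subtypes, genes whose log2(CPM + 1) pattern was among the most like that of a member were sought among 11642 genes. These are descriptions over points that share libraries. For Cacna1e they were Miat (Pearson r = 0.95), Slc8a2 (0.94) and Ak5 (0.93), for Cacna1b Celsr3 (0.97) and Shank1 (0.96), and for Ryr2 Syt13 and Camk2a (0.94 each). For Cacna1c they were Begain (0.88), Dnm1 (0.88) and Ppfia2 (0.86), for Cacna1d Cers6 (0.87), Rtn1 (0.84) and Fam49a (0.81), and for Cacnb4 Prepl (0.84), Snap91 (0.80) and Fam81a (0.80). For Ryr3 the nearest gene was another member, Cacna1e (0.88), before Slit1 (0.87) and Traip (0.85). For 3 members the leading genes overlap the member on the opposite strand, and whether any reads were shared was not tested. They were Gm16183 for Cacna1a (0.99, then Kcnma1 at 0.89 and Clgn at 0.88) and Gm10848 and Gm13269 for Cacnb2 (0.96 and 0.95, then Synj1 at 0.76). For Itpr1 it was Gm44040 (0.93, then Nhsl2 at 0.76 and Arhgap10 at 0.74).

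Group differences were tested on UMIs summed per mouse in 14 classes and subtypes, with edgeR's quasi-likelihood test, sex as a covariate and Benjamini-Hochberg adjustment over all genes of the class. Log2 fold changes are given with their SE. All 10 members passed the low-count filter in all 14. The subtypes are parts of the classes, and the contrasts share control libraries, so the counts below are not independent. In such sums, fewer nuclei of one kind within a class and less RNA per nucleus cannot be told apart. Among members at 20 CPM or more, none had groups that did not overlap in the tau, deletion or heterozygous contrasts (defined below) in these 14, where 0.362% of all gene tests at 20 CPM or more did.

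The first question was how the members differ with P301S. Between P301S Cgas+/+ and Cgas+/+ (the tau contrast), 0 of 140 member tests passed an adjusted p of 0.05, where 0.00975% of all gene tests did; 7 had an unadjusted p under 0.05 (background 4.75%), and DESeq2 called 1, Cacna1d in microglia-like nuclei, against 0.298% of all gene tests. With all 27 mice (the pooled tau contrast, the mean of 3 P301S groups minus the mean of 3 groups without), 5 of 140 passed, against 1.25% of all gene tests, and 39 had an unadjusted p under 0.05, 10 higher and 29 lower with P301S (background 10.9%, 6.18% higher and 4.67% lower). The 5 were Cacna1d, Cacna1e and Ryr3 in microglia-like nuclei, Cacna1b in astrocyte-like nuclei and Ryr3 in dentate granule-like nuclei. The software version that made the tables differed between groups; with it as a covariate 8 passed (0.930% of all gene tests), Cacna1b in astrocyte-like nuclei not among them. DESeq2 called 10 (2.24% of all gene tests), and leaving out 1 library gave 1 call (without P301S Cgas-/- replicate 2) to 8 (without P301S Cgas+/+ replicate 3).

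Cacna1d in microglia-like nuclei rose with P301S. Its level without P301S was 379 CPM at the lowest, 480 at the median and 523 at the highest of 9 libraries, and with P301S 449, 690 and 1024 over 18 libraries. Of the 18 P301S libraries, 15 lay above all 9 others. The log2 fold change was 0.57 ± 0.14 (adjusted p = 0.0096), and the call held in 26 of 27 fits that each left out 1 library, the exception being the fit without Cgas+/- replicate 2 (0.57, adjusted p = 0.0528). Means of the 3 P301S groups lay within 1 SD of each other: Cgas+/+ 684 ± 145 CPM, Cgas+/- 706 ± 185 and Cgas-/- 699 ± 172 (SD, each n = 6). In the tau contrast alone the value was 0.66 ± 0.19 (adjusted p = 0.107).

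Microglia-like nuclei are a class in which 11.6% of all genes tested were called in the pooled tau contrast, and they fell into 2 clusters whose shares moved with P301S. Cluster 1, led by Cd74, Bcar3, Colec12 and Axl, made up 2.80% to 12.5% of microglia-like nuclei in libraries without P301S and 8.48% to 97.2% with it. Cacna1d was higher in cluster 1 than in cluster 2 in 19 of 26 libraries that held both. Libraries without P301S held 13 to 55 nuclei of cluster 1 each, so levels there rest on few UMIs. Within cluster 1 the mean level of Cacna1d without P301S was 323 CPM in Cgas+/+ (n = 5), 577 in Cgas+/- (n = 2) and 568 in Cgas-/- (n = 2). With P301S it was 718, 765 and 760 in the same order (n = 6 each). Within cluster 2 it was 450, 504 and 494 without P301S, and 553 (n = 5), 531 (n = 6) and 517 (n = 6) with it. In cluster 2 the Cgas-/- means without (n = 2) and with P301S lay within 1 SD of each other. The Cgas+/- means there (n = 2 without P301S) lay within the larger SD of the pair only. The Cgas+/+ means there lay further apart than 1 SD, at 450 ± 44.3 CPM without P301S and 553 ± 82.2 with it (SD, n = 5 each). The part of the cluster shares in the Cacna1d result was not tested.

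Cacna1a in microglia-like nuclei varied widely between libraries of one group. It spanned 214 to 1335 CPM without P301S (median 697) and 268 to 2347 with it (median 1083), so the ranges overlapped over most of their length. Its pooled tau value was 0.91 ± 0.45 (adjusted p = 0.211), and with no low-count filter the adjusted p was 9.7e-14. Cacna1a passed the filter, so its own counts were the same in both fits. The second value is therefore not read as a result, and the cause of the gap was not tested. It was higher in cluster 1 than in cluster 2 in 24 of 26 libraries, at 1209 against 677 CPM on average. Cacnb2 went the other way, at 805 against 1043, with cluster 1 higher in 3 of 26.

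**Figure D2:**
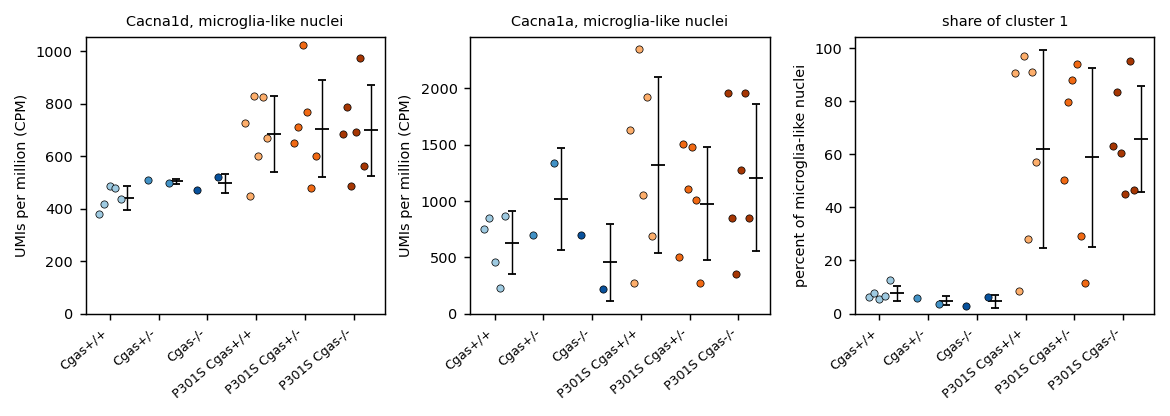
CPM of Cacna1d (left) and Cacna1a (middle) in microglia-like nuclei, and the percent of microglia-like nuclei in cluster 1 (right), 1 point per library in 6 genotype groups, with the mean and SD beside the points. For Cacna1d, 15 of 18 P301S libraries lie above all 9 others, whereas Cacna1a spans 268 to 2347 CPM among P301S libraries.

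Cacna1e and Ryr3 fell with P301S in microglia-like nuclei, from low levels. Cacna1e ranged from 90.2 to 232 CPM without P301S (median 191) and from 72.5 to 197 with it (median 118), a log2 fold change of -0.65 ± 0.19 (adjusted p = 0.0285). Ryr3 ranged from 119 to 241 (median 179) and from 53.4 to 209 (median 113), a change of -0.73 ± 0.22 (adjusted p = 0.0333), with 12 of 18 P301S libraries below all 9 others. The Cacna1e call held in 21 and the Ryr3 call in 20 of 27 fits without 1 library; with predicted doublets kept neither passed (adjusted p = 0.0629 and 0.0506), nor did Ryr3 with no sex covariate (adjusted p = 0.0545). Within cluster 2 the mean of Ryr3 was 162 CPM in Cgas+/+, 184 in Cgas+/- and 187 in Cgas-/- without P301S, against 171, 131 and 120 with it, and that of Cacna1e was 165, 187 and 203 against 150, 138 and 113. Within cluster 1 Ryr3 stood at 199, 125 and 251 against 125, 98.8 and 98.1. Cacna1e stood at 158, 190 and 148 against 132, 109 and 99.8 there. Libraries without P301S held 13 to 55 nuclei of cluster 1 each. The Ryr3 mean of 125 in Cgas+/- came from 52.2 and 197 CPM (n = 2). In cluster 2 the Cgas+/+ difference was thus within 1 SD for both genes, and the Cgas+/- difference was within the larger SD of the pair. The Cgas-/- difference was over 1 SD for both. Ryr3 stood at 187 ± 7.59 without P301S (SD, n = 2) against 120 ± 64.3 with it (n = 6), and Cacna1e at 203 ± 12.2 against 113 ± 47.0. Neither gene exceeded the background gauge in this class, and all 9 neuron genes of the gauge were lower with P301S there as well (median log2 fold change -0.44, range -0.87 to -0.11, 2 called). Their part in these 2 results was not tested. Other members of the class past an unadjusted p of 0.05 were Cacna1b (-0.59), Cacna1c (-0.68), Cacnb2 (-0.41), Cacnb4 (0.45) and Ryr2 (-0.49) in the pooled tau contrast and Cacna1b (-0.79) in the tau contrast.

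In astrocyte-like nuclei Cacna1b fell, from 20.7 to 33.7 CPM without P301S (median 27.4) to 8.74 to 31.1 with it (median 17.2), with 15 of 18 below all 9 others. The log2 fold change was -0.63 ± 0.17 (adjusted p = 0.0431), against 2.50% of all genes called in this class, and the call held in 12 of 27 fits without 1 library. It was lost with no low-count filter (-0.65), with predicted doublets kept (-0.46) and with barcodes over the gene limit kept (-0.30). Its level was 7.05% of that in excitatory neuron-like nuclei, where the 9 gauge genes had a median of 15.04%, and all 9 were lower with P301S (median -0.39, 3 called). Itpr1 had the opposite sign: 61.7 to 75.2 CPM without P301S (median 66.4) and 61.2 to 130 with it (median 92.0), with 14 of 18 above all 9 others. Its value, 0.42 ± 0.13, did not pass (adjusted p = 0.0737). Cacna1c (-0.38), Cacna1e (-0.60), Ryr2 (-0.53) and Ryr3 (-0.61), and Cacna1b in the tau contrast (-0.81), had an unadjusted p under 0.05.

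In dentate granule-like nuclei, the neurons that bring cortical input into the hippocampus, Ryr3 fell with P301S. It spanned 454 to 651 CPM without P301S (median 537) and 322 to 545 with it (median 417), and 12 of 18 P301S libraries lay below all 9 others. The log2 fold change was -0.43 ± 0.10 (adjusted p = 0.0451), where 0.661% of genes in this subtype were called. The call sat near the threshold: it held in 9 of 27 fits without 1 library, with values from -0.50 to -0.36, and was lost with no low-count filter (adjusted p = 0.0575), with no sex covariate (0.0952) and without P301S Cgas+/+ replicate 3 and P301S Cgas+/- replicate 1 together (0.0760). Of markers of CA1 and CA3, where Ryr3 is higher, 4 of 7 (median -0.30) and 5 of 8 (median -0.14) were lower with P301S in these nuclei, none of them called by edgeR (4 of 7 and 2 of 8 markers had an unadjusted p under 0.05), and their part in the Ryr3 result was not tested. In the tau contrast Ryr3 stood at -0.29, and Itpr1 in the pooled contrast at 0.21, both past an unadjusted p of 0.05 only.

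A negative sign of Ryr3 was seen in some other classes without passing the test. In oligodendrocyte progenitor-like nuclei it ranged from 282 to 369 CPM without P301S and from 207 to 352 with it, with 13 of 18 below all 9 others and a log2 fold change of -0.35 ± 0.087 (adjusted p = 0.0621). It was -0.59 in oligodendrocyte-like, -0.46 in Pvalb-like, -0.46 in Vip-like and -0.42 in excitatory neuron-like nuclei, each with an unadjusted p under 0.05. In hippocampal-like nuclei alone the excitatory value was 0.078, and in CA1-like nuclei, where Ryr3 is highest, it was 0.14 ± 0.12 (adjusted p = 1), the opposite sign. These classes share the same 27 libraries. Other pooled tau values of that kind were, in oligodendrocyte-like nuclei, Cacna1b (-0.44), Cacna1e (-0.48), Cacnb2 (-0.67), Cacnb4 (0.40) and Ryr2 (-0.47), with all 9 gauge genes lower there (median -0.32, 0 called). They were, in oligodendrocyte progenitor-like nuclei, Cacna1e (-0.28) and Ryr2 (-0.28), and in inhibitory neuron-like nuclei Cacna1b (-0.16). In the tau contrast, oligodendrocyte progenitor-like nuclei had Cacnb2 (0.29), Ryr3 (-0.26) and Itpr1 (0.37).

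The second question was how the members differ with the labelled Cgas genotype among P301S mice. P301S Cgas-/- minus P301S Cgas+/+ is called the deletion contrast and P301S Cgas+/- minus P301S Cgas+/+ the heterozygous contrast, and both use the same P301S Cgas+/+ libraries. By edgeR 0 of 140 member tests passed in each, against 0.00520% and 0.00455% of all gene tests. For deletion 15 tests had an unadjusted p under 0.05 (5 higher, 10 lower; background 5.55%, 2.73% higher and 2.82% lower) and 13 for the heterozygous genotype (5 higher, 8 lower; background 5.48%, 2.66% higher and 2.82% lower). DESeq2 called 0 and 1, the latter Itpr1 in Pvalb-like nuclei, against 0.109% and 0.203% of all gene tests.

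In excitatory neuron-like nuclei the largest values for deletion were those of the β subunits. Cacnb2 ranged from 710 to 2229 CPM in P301S Cgas+/+ (median 1609), from 553 to 1610 in P301S Cgas-/- (median 1069) and from 483 to 1238 in P301S Cgas+/- (median 1035). Cacnb4 ranged from 434 to 1092 (median 686), from 799 to 1304 (median 960) and from 793 to 1373 (median 981). All ranges overlapped. The deletion contrast gave -0.65 ± 0.28 for Cacnb2, 0.50 ± 0.21 for Cacnb4, -0.49 ± 0.17 for Cacna1c, -0.38 ± 0.13 for Cacna1e and -0.23 ± 0.11 for Ryr2 (adjusted p from 0.244 to 0.365, with 13.5% of all genes of the class at an unadjusted p under 0.05). The heterozygous contrast gave -0.82 for Cacnb2, 0.47 for Cacnb4, -0.36 for Cacna1e and -0.60 for Ryr3.

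The mix of subtypes differed between the groups. The cortical-like share of excitatory neuron-like nuclei averaged 26.0% ± 24.4 in P301S Cgas+/+, with single libraries from 3.65% to 63.5%. It averaged 51.6% ± 11.9 in P301S Cgas-/-, and P301S Cgas+/- libraries had 53.0% ± 14.9 (SD, n = 6 in each). In hippocampal-like nuclei alone the deletion contrast was 0.061 for Cacnb2 and 0.015 for Cacnb4, and with the cortical-like share as a covariate it was 0.0028 and 0.040. Cacna1c was -0.38 and -0.10 in these 2 fits, Cacna1e -0.049 and -0.15, and Ryr2 -0.16 and -0.010. Shares of hippocampal subtypes differed too. Dentate granule-like nuclei averaged 32.3% ± 21.2 in P301S Cgas+/+ against 15.6% ± 11.7 in P301S Cgas-/-. CA1-like nuclei averaged 22.3% ± 11.9 against 12.8% ± 7.83, and CA3-like nuclei 4.35% ± 4.24 against 0.707% ± 0.778 (SD, n = 6 in each). The part of the subtype mix was tested neither in the class-wide values nor, for any contrast, in those of hippocampal-like nuclei alone. Within dentate granule-like, CA1-like, CA3-like and cortical-like nuclei, no member had an unadjusted p under 0.05 for deletion. Cacna1a (0.51) and Cacnb2 (-0.43) did so in CA3-like nuclei in the heterozygous contrast. The deletion contrast in CA3-like nuclei rested on 3 P301S Cgas-/- and 5 P301S Cgas+/+ libraries.

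**Figure D3:**
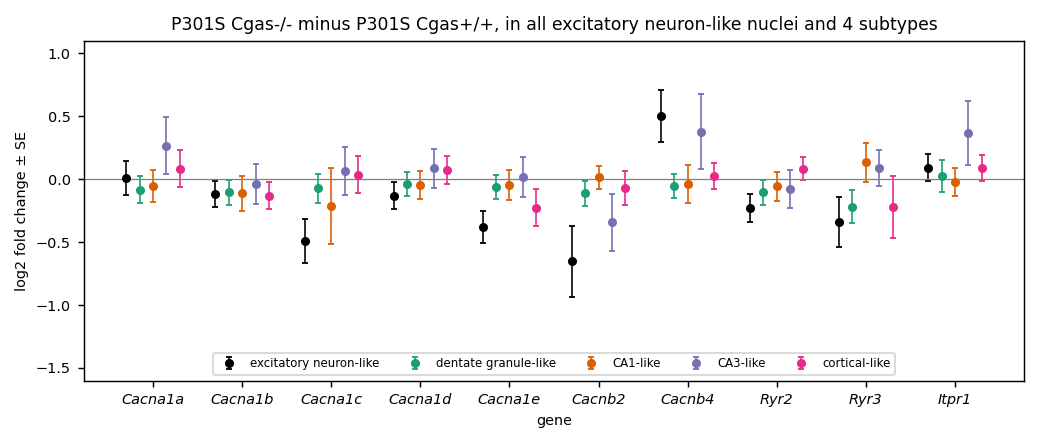
Log2 fold change between P301S Cgas-/- and P301S Cgas+/+ libraries (vertical axis, with SE as bars) for the 10 genes (horizontal axis) in all excitatory neuron-like nuclei and in 4 subtypes. The black points, for all excitatory neuron-like nuclei, reach -0.65 for Cacnb2 and 0.50 for Cacnb4. No point of a subtype passed an unadjusted p of 0.05. CA3-like points rest on 3 P301S Cgas-/- and 5 P301S Cgas+/+ libraries.

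In interneurons the release channel Itpr1 had positive values with an unadjusted p under 0.05 in 3 subtypes. Over all 14 classes and subtypes, 5.55% of all gene tests had such a p for deletion and 5.48% for the heterozygous contrast. In Pvalb-like nuclei, the fast-spiking interneurons, Itpr1 was 201 CPM at the lowest, 239 at the median and 291 at the highest of 6 P301S Cgas+/+ libraries. It was 254, 335 and 366 in P301S Cgas-/- and 217, 338 and 466 in P301S Cgas+/-, and the 5 Cgas+/+ libraries without P301S spanned 224 to 266. The deletion contrast was 0.38 ± 0.11 (adjusted p = 0.266) and the heterozygous contrast 0.46 ± 0.11 (adjusted p = 0.134), so neither passed. Groups overlapped in both contrasts. In Sst-like nuclei Itpr1 spanned 74.8 to 138 CPM in 5 P301S Cgas+/+ libraries, 117 to 193 in P301S Cgas-/- and 92.3 to 191 in P301S Cgas+/-, with values of 0.42 in both contrasts. In Lamp5-like nuclei the deletion contrast was 0.31. Vip-like nuclei did not share this: Itpr1 averaged 19.5 ± 7.85 CPM in P301S Cgas+/+ and 18.8 ± 6.81 in P301S Cgas-/-. It averaged 23.6 ± 11.7 in P301S Cgas+/- (SD, n = 6 in each). The cortical-like share differed between these groups, as given above, and its part in the Itpr1 values was not tested.

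**Figure D4:**
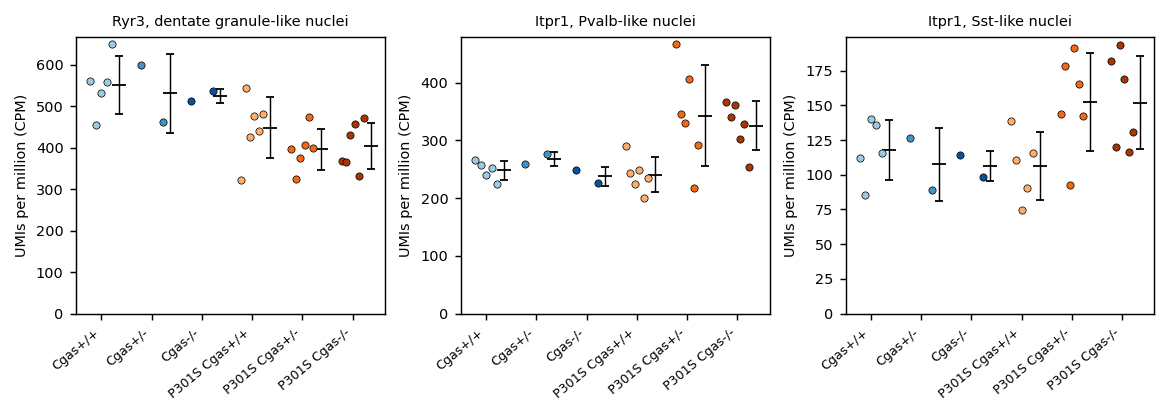
CPM of Ryr3 in dentate granule-like nuclei (left) and of Itpr1 in Pvalb-like (middle) and Sst-like nuclei (right), 1 point per library in 6 genotype groups, with the mean and SD beside the points. Ryr3 spans 322 to 545 CPM with P301S and 454 to 651 without, and Itpr1 in Pvalb-like nuclei reaches 466 in P301S Cgas+/- against 291 at most in P301S Cgas+/+.

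Other interneuron values with an unadjusted p under 0.05 concerned Cacnb2, Cacna1e, Ryr3 and other members. In Pvalb-like nuclei Cacnb2 averaged 328 ± 45.7 CPM in P301S Cgas+/+, with 275 ± 34.1 for P301S Cgas-/- libraries and 252 ± 39.6 for P301S Cgas+/- (SD, n = 6 in each), with contrasts of -0.32 and -0.46 (adjusted p = 0.522 and 0.160). Ryr3 was -0.67 in the heterozygous contrast there, at levels of 4.35 to 54.8 CPM. In Sst-like nuclei the deletion value of Cacna1e was 0.45 and its heterozygous value 0.68, opposite in sign to excitatory neuron-like nuclei; the difference between the classes was not tested. In the pooled tau contrast Pvalb-like nuclei had Cacnb2 (-0.34), Cacnb4 (-0.19) and Itpr1 (0.29), and Sst-like nuclei had Cacna1e (0.36) and Ryr2 (0.19).

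Over all inhibitory neuron-like nuclei, Cacnb2, Cacna1e and Ryr3 are genes the study names as lower with Cgas deletion; it picked them on these libraries, so their direction here is not independent evidence. Of the 3, 0 passed by edgeR or DESeq2, and 0 had an unadjusted p under 0.05. Ryr3 was 142, 120, 781, 299, 504 and 125 CPM in the 6 P301S Cgas+/+ libraries and 110, 213, 133, 182, 160 and 81.3 in the 6 P301S Cgas-/- libraries. The first group was spread by 3 high libraries, and the groups overlapped. The deletion contrast was -1.27 for Ryr3 (adjusted p = 0.877), -0.47 for Cacna1e (0.933) and -0.29 for Cacnb2 (0.885), and with the 4 named subtypes weighted equally (limma) it was -0.26, 0.12 and -0.15. The heterozygous contrast was -1.01, -0.038 and -0.28, and the tau contrast 0.34, 0.069 and 0.093.

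Much of the Ryr3 signal of this class lay in subclusters without a subtype name. They held 28.9% of the class's UMIs but 57.3% of its Ryr3 UMIs, 45.9% of its Cacna1e UMIs and 36.2% of its Cacnb2 UMIs. A single subcluster of 263 nuclei, led by Ano2, Prdm16, Col23a1, Cpa6 and Palmd, carried 24.5% of the Ryr3 UMIs at 2742 CPM, with Cacna1e at 1608 and Cacnb2 at 1872. Of its nuclei 43.0% came from Cgas+/+ replicate 2, where they were 28.5% of inhibitory neuron-like nuclei, and 91 came from P301S Cgas+/+ replicate 5. The unnamed share was 65.3% in P301S Cgas+/+ replicate 3 and 51.8% in replicate 5, and 38.5% ± 17.4 (SD, n = 6) over that group against 20.2% ± 4.81 (n = 6) in P301S Cgas-/-.

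**Figure D5:**
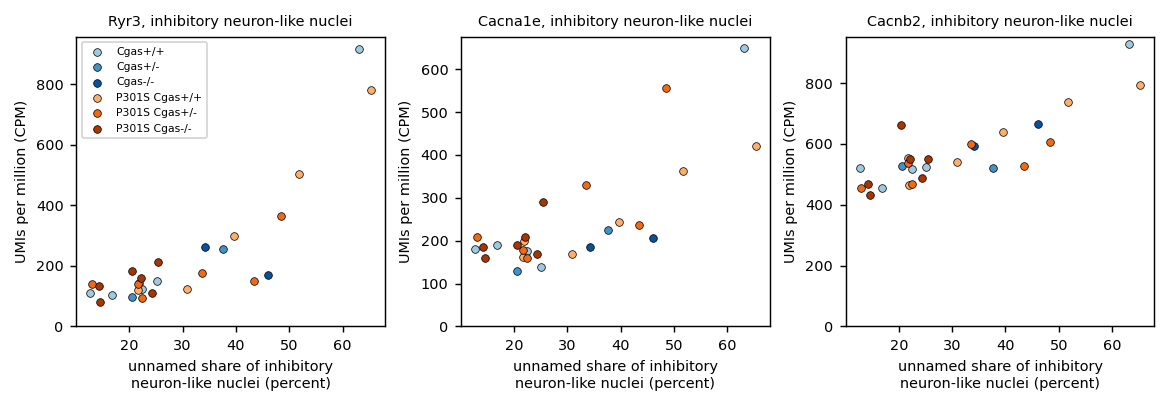
CPM of Ryr3 (left), Cacna1e (middle) and Cacnb2 (right) in inhibitory neuron-like nuclei (vertical axes) against the percent of those nuclei in subclusters without a subtype name (horizontal axes), 1 point per library, coloured by genotype group. The highest Ryr3 values, 914 CPM in Cgas+/+ replicate 2 and 781 in P301S Cgas+/+ replicate 3, lie at unnamed shares of 63.1% and 65.3%.

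In glia-like classes the deletion contrast had its smallest unadjusted p at Cacnb2 in oligodendrocyte progenitor-like nuclei. Cacnb2 ranged from 202 to 372 CPM in P301S Cgas+/+ (median 311), from 166 to 263 in P301S Cgas-/- (median 235) and from 163 to 259 in P301S Cgas+/- (median 232). The groups overlapped, and the contrasts were -0.45 ± 0.13 (adjusted p = 0.998) and -0.39 ± 0.13 (adjusted p = 0.999). Cacna1b was -0.41 and -0.29 in the same 2 contrasts, and Itpr1 -0.27 in the deletion contrast. Elsewhere the deletion contrast was -0.59 for Cacna1a in astrocyte-like nuclei and -0.65 for Cacnb2 in oligodendrocyte-like nuclei.

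Without P301S, Cgas-/- against Cgas+/+ compared 2 with 5 libraries, and 0 of 140 member tests passed by edgeR or DESeq2, as did 0% of all gene tests by edgeR and 0.0406% by DESeq2. An unadjusted p under 0.05 was found for 5 (background 3.29%): Cacnb2 (0.82) and Cacnb4 (-0.88) in excitatory neuron-like nuclei, Cacnb4 (-0.78) in astrocyte-like, Cacnb2 (0.41) in Pvalb-like and Cacna1d (-0.38) in Vip-like nuclei. The 2 Cgas-/- libraries had a cortical-like share of 6.75% on average, against 34.7% ± 16.3 (SD, n = 5) in Cgas+/+. The part of this share in the values of excitatory neuron-like nuclei was not tested.

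The interaction of P301S and Cgas deletion tests whether the deletion contrast differs with and without P301S. It called 0 of 140 member tests by edgeR, against 0.0657% of all gene tests, and 3 by DESeq2, against 0.579%. Leaving out 1 library gave 0 to 5 calls, the 5 without P301S Cgas+/+ replicate 1. An unadjusted p under 0.05 was found for 15 (3 higher, 12 lower; background 5.95%, 3.36% higher and 2.59% lower). In excitatory neuron-like nuclei these were Cacnb4 (1.38 ± 0.38, adjusted p = 0.0696), Cacnb2 (-1.47 ± 0.46, adjusted p = 0.0951), Cacna1e (-0.71), Cacna1c (-0.93), Ryr2 (-0.53) and Ryr3 (-0.78). The 3 called by DESeq2 were Cacnb4, Cacnb2 and Cacna1e in this class. In hippocampal-like nuclei alone the interaction was 0.059 for Cacnb4, -0.043 for Cacnb2 and, with its sign turned, 0.21 for Ryr3, and with the cortical-like share as a covariate it was 0.28, -0.099 and 0.027. In Pvalb-like nuclei they were Cacnb2 (-0.74) and Itpr1 (0.44), in Sst-like nuclei Cacna1e (0.92) and Cacna1b (-0.35), and in Vip-like nuclei Cacnb2 (-0.40). In oligodendrocyte progenitor-like nuclei they were Cacna1b (-0.63), Cacnb2 (-0.71) and Itpr1 (-0.47), and in oligodendrocyte-like nuclei Cacnb2 (-1.31). In the pooled tau contrast, where excitatory neuron-like nuclei had a background of 2.59% called, Cacnb4 stood at 0.58 (adjusted p = 0.0553), Cacna1e at -0.33 (0.063), Cacna1c at -0.42, Cacnb2 at -0.63 and Itpr1 at 0.18. In hippocampal-like nuclei alone these were -0.015 (Cacnb4, its sign turned), -0.035, -0.19, -0.0087 and 0.15.

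A list of 80 other calcium genes (remaining channel subunits, store-operated entry, pumps and exchangers, mitochondrial uptake, calcium sensors and the phospholipase C path) was read from the same fits. It had 0 calls by edgeR in the tau, deletion and heterozygous contrasts (896 tests each). At an unadjusted p under 0.05 stood 59 (6.58%), 75 (8.37%) and 73 (8.15%), where all gene tests gave 4.75%, 5.55% and 5.48%; DESeq2 called 2, 3 and 5, where it called 0.298%, 0.109% and 0.203% of all gene tests. The deletion contrast without P301S also had 0 calls (929 tests, 35 or 3.77% at an unadjusted p under 0.05, near the 3.29% of all gene tests). In the pooled tau contrast 18 of 929 were called, 9 higher and 9 lower, where 1.25% of all gene tests were, and 163 (17.5%) had an unadjusted p under 0.05, against 10.9%. Leaving out 1 library gave 2 calls (without Cgas+/- replicate 2) to 28 (without P301S Cgas+/+ replicate 2). Of the 18, 10 lay in microglia-like nuclei, where 11.6% of all genes were called. Asph (0.75) rose, as did Itpkb (0.65) and Inpp5a (0.60), which both remove IP3, and Gnaq (0.34), the G protein that switches phospholipase C on. Slc24a3 (-0.58), Ppp3ca (-0.25), Cacna2d1 (-0.65), Cacng8 (-0.93), Mcu (-0.41) and Nalcn (-0.57) fell in the same nuclei, in which all 9 neuron genes of the gauge were lower as well (median -0.44); their part in these values was not tested. In excitatory neuron-like nuclei Plcb4 (1.44) and Slc8a3 (0.50) rose, and Cacng8 (-0.69) and Mcu (-0.34), the pore of mitochondrial calcium uptake, fell. The cortical-like share of this class averaged 26.0%, 53.0% and 51.6% in the 3 P301S groups and 34.7%, 24.0% and 6.75% in the others, and in hippocampal-like nuclei alone the 4 values were -0.014, -0.14, -0.19 and -0.11. With the cortical-like share as a covariate they were 0.65, 0.30, -0.18 and -0.20, and none was called in either fit. Camkk2 (0.96) and Cacng5 (1.79) rose in astrocyte-like nuclei, and in dentate granule-like nuclei Camk2d (0.77) rose and Camkk2 (-0.32) fell.

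The interaction called 1 of 929, against 0.0657% of all gene tests, with 77 at an unadjusted p under 0.05 (8.29% against 5.95%). The 1 was Plcb4, a phospholipase C that makes IP3, in excitatory neuron-like nuclei (3.22, adjusted p = 0.0482). This call was lost in 7 alternatives, among them hippocampal-like nuclei alone (0.17) and the cortical-like share as a covariate (1.42). In fits without 1 library the count of interaction calls ran from 0 to 12 and differed from 1 in at least 25 of 27. Of the other contrasts, the 3 genes of smallest p in excitatory neuron-like nuclei were Atp2b4 (-0.57), Fkbp1a (0.16) and Camk2d (-0.49) for tau, Plcb4 (1.41), Stim2 (-0.47) and Mcu (-0.44) for deletion, and Plcb4 (1.66), Mcu (-0.38) and Camk2g (0.36) for the heterozygous contrast. Without P301S they were Plcb4 (-1.80), Camk2d (-1.75) and Itpr3 (-2.40). None of these passed. In inhibitory neuron-like nuclei those of smallest p included Cacng3 (0.24) and Cacna2d2 (-0.25) for tau and Plcb4 (-0.51) and Cacng4 (-0.63) for deletion. They were Cacng3 (-0.26), Cacna2d2 (0.32) and Cacng4 (-0.61) for the heterozygous contrast. For pooled tau they were Cacng8 (-0.22), Atp2b1 (0.26) and Cacna2d2 (0.20), for deletion without P301S Cacng7 (-0.27), Tmem38a (-0.31) and Cacna2d2 (-0.55), and for the interaction Tmem38a (0.42), Cacna2d2 (0.73) and Cacna1g (-0.71), and none passed.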

How the data were processed

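Hippocampal nuclei of 27 mice were sequenced as 10x Chromium 3' v3 libraries. The authors deposited raw UMI counts per gene and barcode, aligned to mm10 with reads on pre-mRNA included; the submitters' processing notes name Cell Ranger 3.1.0 and Seurat 3.0, whereas the file headers give version 3.0.2 in 12 libraries, among them all Cgas+/- and Cgas-/- libraries without P301S, and 3.1.0 in 15. The annotation release is not given in the sources used here. Groups came from the genotype labels.

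Of 241938 barcodes, 221281 passed limits of 200 to 4000 detected genes and 5% mitochondrial UMIs. Barcodes over 4000 genes numbered 20027. With these kept, 13 of 240 member levels by class or subtype moved by more than 1 SD. Scrublet, run through scanpy, removed 16429 predicted doublets at 0.8% per 1000 barcodes. Counts scaled to 10000 per nucleus, 2000 variable genes without the 10 members, the other calcium genes, sex-linked and mitochondrial genes, 30 principal components and 15 nearest neighbours gave Leiden clusters at resolution 1.0 (igraph 0.11.9). Of 64 clusters, 51 were named from marker lists. Thresholds of the naming rule were revised after cluster markers had been seen and with no comparison between groups made. The members and gene lists were chosen with earlier results of these data known.

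UMIs were summed per library and class (at least 10 nuclei) and tested with edgeR 4.0.16 (R 4.3.3; quasi-likelihood, TMM, filterByExpr, robust, sex covariate), first over 23 mice of the 3 P301S groups and Cgas+/+, then over all 27; the study tested nuclei, whereas mice are the unit here. Adjusted p under 0.05 counted as called. All members were named, with values for each contrast at an unadjusted p under 0.05, for the 3 genes the study names in inhibitory neurons and for any called. Other calcium genes were named if called, and otherwise by the 3 smallest p in each neuron-like class and contrast. For likeness of pattern, the 3 genes of highest Pearson r were named. A few genes that these rules select are not reported here. DESeq2 1.42.0, other filters, limma 3.58.1 for equal subtype weights, and fits without single libraries were alternatives. The fitting code was tested on simulated data. Positions came from GENCODE vM21. Precision is limited by the number of mice, and UMI totals per library bound counting error only.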

Additional observations from a re-analysis of the deposited data

Results flagged for a closer look

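In groups of 4 to 10 libraries, the gap between an extreme library and its nearest neighbour was compared with the whole range of the group (Dixon's criterion), over 57 groups of values. In 4 of the 57 the gap exceeded the 95% critical value, where chance gives about 1 in 20 groups, so the count is near that of chance. All 4 lay in inhibitory neuron-like nuclei, most of them in 1 library, so they are not independent. In the library labelled Cgas+/+ replicate 2, Ryr3 stood at 914 CPM against 103 to 151 in the other 4 libraries, Cacna1e at 650 against 140 to 191, and Cacnb2 at 927 against 456 to 523. The same library held 113 nuclei of the subcluster led by Ano2 and Prdm16, 28.5% of its inhibitory neuron-like nuclei. In the library labelled P301S Cgas+/- replicate 1, Ryr3 stood at 365 CPM against 93.4 to 177 in the other 5, at an unnamed share of 48.4%. The part of these shares in the 4 values was not tested.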

How the results depend on the processing

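No paired analysis was possible because the labels give no replicate numbers, and the numbers used here only name libraries. Over the named members and all alternatives, fits without 1 library included, 3687 values kept their direction and their side of the threshold, 57 lost a call, 79 gained one and 56 changed sign. With no low-count filter, member calls were 3 for tau, 1 for deletion, 3 for the heterozygous contrast, 11 for pooled tau and 1 for the interaction; with DESeq2 they were 1, 0, 1, 10 and 3. Keeping barcodes over the gene limit gave 1 heterozygous call, the software version as a covariate 8 pooled tau calls and 1 interaction call, and leaving out P301S Cgas+/+ replicate 3 and P301S Cgas+/- replicate 1 together 10 pooled tau calls; these last 2 alternatives and the cortical-like covariate were chosen after seeing the data. Leaving out 1 library gave 1 to 8 pooled tau calls (1 without P301S Cgas-/- replicate 2, 8 without P301S Cgas+/+ replicate 3). It gave 0 to 5 for the interaction (5 without P301S Cgas+/+ replicate 1), 0 to 1 for the heterozygous contrast and 0 to 1 for tau. Shares of all gene tests are given only for the main fits, DESeq2 and the software covariate in pooled tau. Counts under the other settings, here and above, therefore have no background and are not read as results about the members.

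Of the called members, Cacna1b in astrocyte-like nuclei lost its call with no filter (-0.65), over-limit barcodes (-0.30), doublets kept (-0.46) and the software covariate (-0.63), and spanned -0.74 to -0.57 without 1 library. Cacna1e in microglia-like nuclei lost it with doublets kept (-0.51; -0.75 to -0.56 without 1 library), Ryr3 there with no sex covariate (-0.62) or doublets kept (-0.66; -0.85 to -0.51), and Ryr3 in dentate granule-like nuclei with no filter (-0.44), no sex covariate (-0.35) or without the 2 libraries (-0.43; -0.50 to -0.36). Cacna1d in microglia-like nuclei was called in all 8 other alternatives and in 26 of 27 fits without 1 library (0.49 to 0.64; 0.57 at an adjusted p of 0.0528 without Cgas+/- replicate 2).

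Signs changed in excitatory neuron-like nuclei with hippocampal-like nuclei alone for Cacnb2 in deletion (0.061), Cacnb4 in the heterozygous (-0.034) and pooled tau contrasts (-0.015) and Ryr3 in pooled tau (0.078) and the interaction (0.21), and with the cortical-like covariate for Cacnb2 in deletion (0.0028), Cacnb4 in the heterozygous contrast (-0.0091) and Ryr3 in the interaction (0.027). In inhibitory neuron-like nuclei, Cacna1e changed sign in tau with no sex covariate (-0.014), over-limit barcodes (-0.098), without the 2 libraries (-0.14), with only the 2 groups (-0.10) and with equal subtype weights (-0.093). In the heterozygous contrast it did so with no sex covariate (0.029), over-limit barcodes (0.016), only the 2 groups (0.042) and equal weights (0.14), in deletion with equal weights (0.12) and in the interaction with no sex covariate (-0.0031). Ryr3 did so in tau without the 2 libraries (-0.11), with only the 2 groups (-0.072) and with equal weights (-0.082), in pooled tau with the software covariate (0.14) and in deletion without P301S with equal weights (0.12). Cacna1c in astrocyte-like nuclei did so in pooled tau with over-limit barcodes (0.046). The cause of these changes was not tested.

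Without 1 library, values in inhibitory neuron-like nuclei for tau spanned -0.027 to 1.37 (Ryr3), -0.11 to 0.60 (Cacna1e) and -0.0038 to 0.30 (Cacnb2), each highest without Cgas+/+ replicate 2. For deletion without P301S they spanned -0.67 to 0.88, -0.68 to 0.18 and -0.026 to 0.35, again highest without that library. Cacna1e spanned -0.28 to 0.14 in the heterozygous contrast and -0.61 to 0.22 in the interaction, and Ryr3 -0.24 to 0.23 in pooled tau.

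Among the 80 other calcium genes, calls with no filter were 5 for tau, 2 for deletion, 6 for the heterozygous contrast and 2 for the interaction, and with DESeq2 2, 3, 5 and 7, with 33 for pooled tau. The 1 interaction call became 0 with RLE size factors, no sex covariate, over-limit barcodes, doublets kept, without the 2 libraries, with hippocampal-like nuclei alone and with the cortical-like covariate. Without 1 library, calls spanned 2 (without Cgas+/- replicate 2) to 28 (without P301S Cgas+/+ replicate 2) for pooled tau, 0 to 12 (without P301S Cgas+/+ replicate 1) for the interaction and 0 to 3 for tau. For settings other than the main fits and DESeq2, the share of all gene tests called is not given, so these counts have no background. Groups of 2 mice and the tie of software version to group are limits of the 27-mouse contrasts.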
